A study of Bos taurus with 8 samples.

Results

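The sarcomere is the contractile unit of striated muscle, and the genes described here encode its thin filament, its thick filament, the M-band that links thick filaments, the Z-disc that anchors thin filaments, titin with its partners, and the factors that help to assemble it. They were taken as a list of 54 gene symbols chosen by function, with earlier results of these data known. Of these, 46 had a row among the 18871 genes of the deposited count table and were tested. The other 8 (*MYH8*, *MYBPC1*, *MYOZ2*, *MYOZ3*, *TMOD4*, *TRIM63*, *TRIM54* and *SMYD1*) were not analysed here. Expression was measured by RNA-seq in 8 single-cell preadipocyte clones from adult male Angus-cross steers, 4 from the stromal vascular fraction of intramuscular fat (IMF) dissected out of *longissimus dorsi* muscle and 4 from that of subcutaneous fat (SF). Neither group carried a genetic change, and both were grown in the same serum-containing growth medium. Per the paper's methods, RNA was collected before the clones were confluent and before adipogenic induction, whereas the series' design text places induction before sequencing. Each sample is 1 clone, and the authors picked clones with the shape of fibroblasts that formed fat relatively well and grew relatively fast. The paper takes each clone from a sample of stromal vascular fraction of its depot, and whether an IMF and an SF clone share a steer is not given in the sources used here. The p-values measure the spread between these clones.

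In a muscle fibre, actin filaments, capped by tropomodulin and spanned by nebulin, slide past myosin filaments when calcium binds troponin and moves tropomyosin. Many of these proteins exist as developmental, fast, slow and cardiac isoforms encoded by separate genes, and the embryonic forms are the ones made when myoblasts begin to differentiate. Several others, such as tropomyosins, filamin C, PDLIM5 and ANKRD1, also occur in smooth muscle or in stressed and spread non-muscle cells. Fat cell precursors are not known for building sarcomeres.

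Counts on named genes summed to 19654917 to 29308882 in a clone. Levels are given as CPM, the read count scaled to library size with edgeR's TMM factors, and, wherever genes are compared with each other, as TPM, which also divides by gene length. A count of 0 in an SF clone allows up to 3 counts, or from 0.122 to 0.165 CPM, for counting error only. Of 7 preadipocyte markers with a row, *PDGFRA* and *PDGFRB* had a mean of over 100 CPM in both groups, and held most of the summed level of the list, 409 to 426 CPM in the IMF clones and 315 to 460 CPM in the SF clones. The other 5 had means of under 10 CPM. Here and below, genes counted as higher or lower in IMF passed the thresholds given in the next paragraph. Of all genes tested, 4.78% passed as higher and 4.04% as lower. Of the 7 preadipocyte markers, *FABP4* was higher and *PPARG*, which drives adipogenesis, lower in IMF (1.23 and 3.13 CPM). Markers of other cells moved with the depot. Of 4 myogenic factors with a row, *MYOD1*, *MYF5* and *MYOG* were higher in IMF, and the list summed to 210 to 244 CPM in IMF and 5.84 to 8.04 CPM in SF, where *MYOD1* and *MYOG* had 0 counts and *MEF2C* made up nearly all of the sum. Of 7 endothelial markers, 6 were higher in IMF, with summed levels of 142 to 189 CPM in IMF and 27.3 to 38.1 CPM in SF, where *KDR* had 0 counts and *CLDN5* held most of the sum. Of 3 leukocyte markers, *CD14* was higher in IMF, and the list summed to 10.5 to 27.5 CPM in IMF and 29.3 to 52.8 CPM in SF, where *PTPRC*, the pan-leukocyte CD45, held most of the sum. *PTPRC* averaged 9.68 CPM in IMF against 33.3 CPM in SF without overlap and did not pass (log2 fold change -1.79, adjusted p = 0.0518). Of 2 pericyte markers, *MCAM* was higher and *CSPG4* lower in IMF, with sums of 83.8 to 93.8 CPM in IMF and 127 to 330.0 CPM in SF. The part of these cell types in the results below was not tested. Fewer cells of a type and less RNA per cell cannot be told apart in such bulk samples.

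Most of the 46 members were higher in the IMF clones. In 18 of them every SF clone had 3 counts or fewer, against 284 of the 18339 genes tested. These 18 met the filter of at least 20 counts in total only with their IMF counts. The thresholds were an adjusted p under 0.05 (edgeR quasi-likelihood, Benjamini-Hochberg over 18339 genes) and a difference of at least 1 on the log2 scale, which 33 of the 46 members (71.7%) passed, against 8.82% of all genes tested. Higher in IMF were 31 (67.4%), against 4.78% of all genes. Lower in IMF under the same thresholds were 2 members, *ANKRD1* and *PDLIM5*, against 4.04% of all genes. The remaining 13 did not pass. The groups did not overlap in 37 members, against 32.1% of all genes. All 4 IMF clones lay above all 4 SF clones in 35 of them (76.1% of members, against 18.0% of all genes) and below in 2 (against 14.1%). The members had a median log2 fold change of 6.07, or 4.89 when the 9 members with 0 counts in every SF clone were set to their lower bound, and all genes tested had one of -0.03. The summed level of all 46 members overlapped between the groups, at 2773 to 3569 TPM in IMF and 2171 to 4407 TPM in SF. On average, the sum was lower in IMF for the thin filament (1506 and 1681 TPM) and for titin with its partners (286 and 776 TPM). It was higher in IMF for the other parts. When counts were scaled by total counts alone, the median of all genes moved to 0.12 and the split of all genes past the threshold from 877 higher and 741 lower to 1078 higher and 539 lower, and 33 members were then higher and 1 lower.

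**Figure D1:**
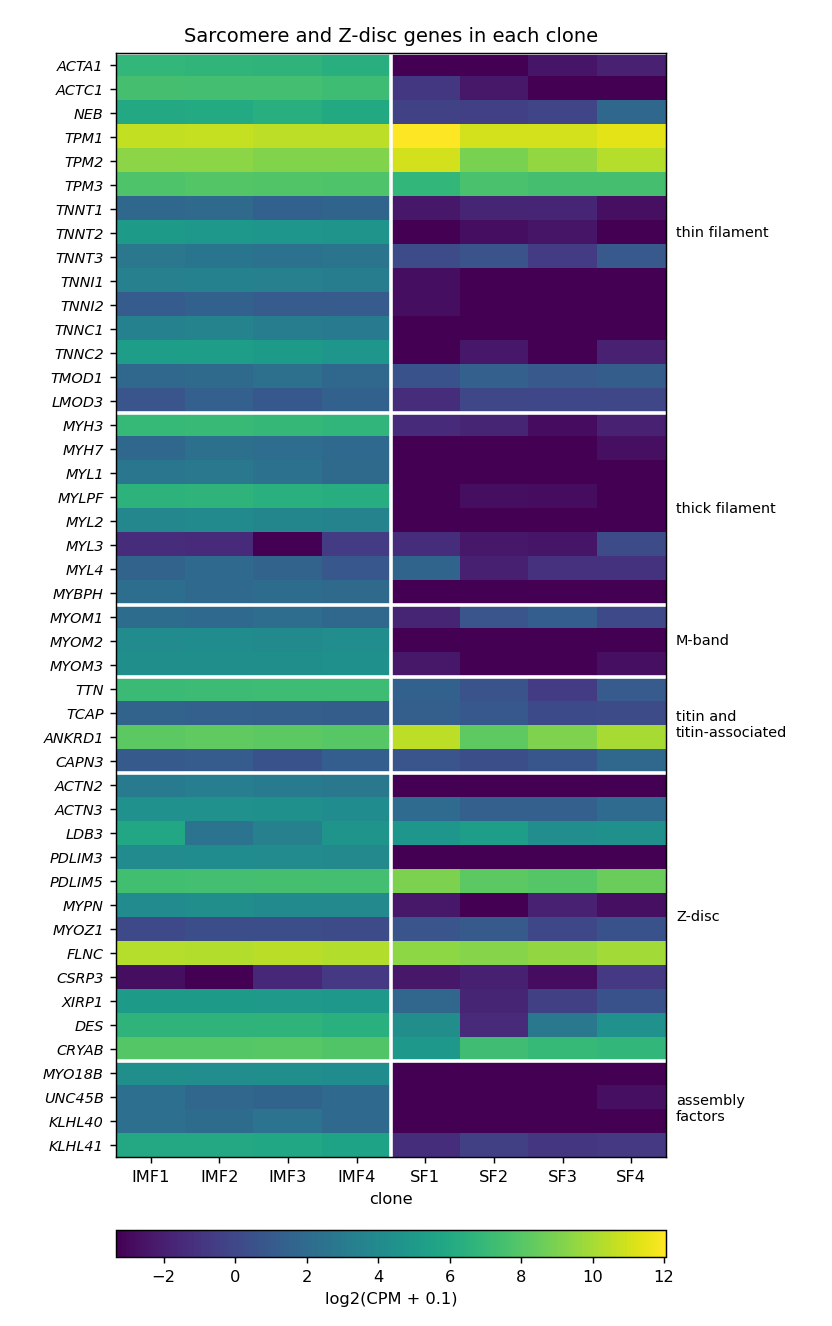
Level of the 46 members in each clone, as log2(CPM + 0.1) on the colour scale, with rows grouped by part of the sarcomere and a white line between the IMF and SF clones. The 4 IMF columns look alike, and the dark SF cells include the 18 members with 3 counts or fewer in every SF clone, while *TPM1*, *TPM2*, *ANKRD1*, *PDLIM5* and *FLNC* are bright in all 8 columns.

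**Figure D2:**
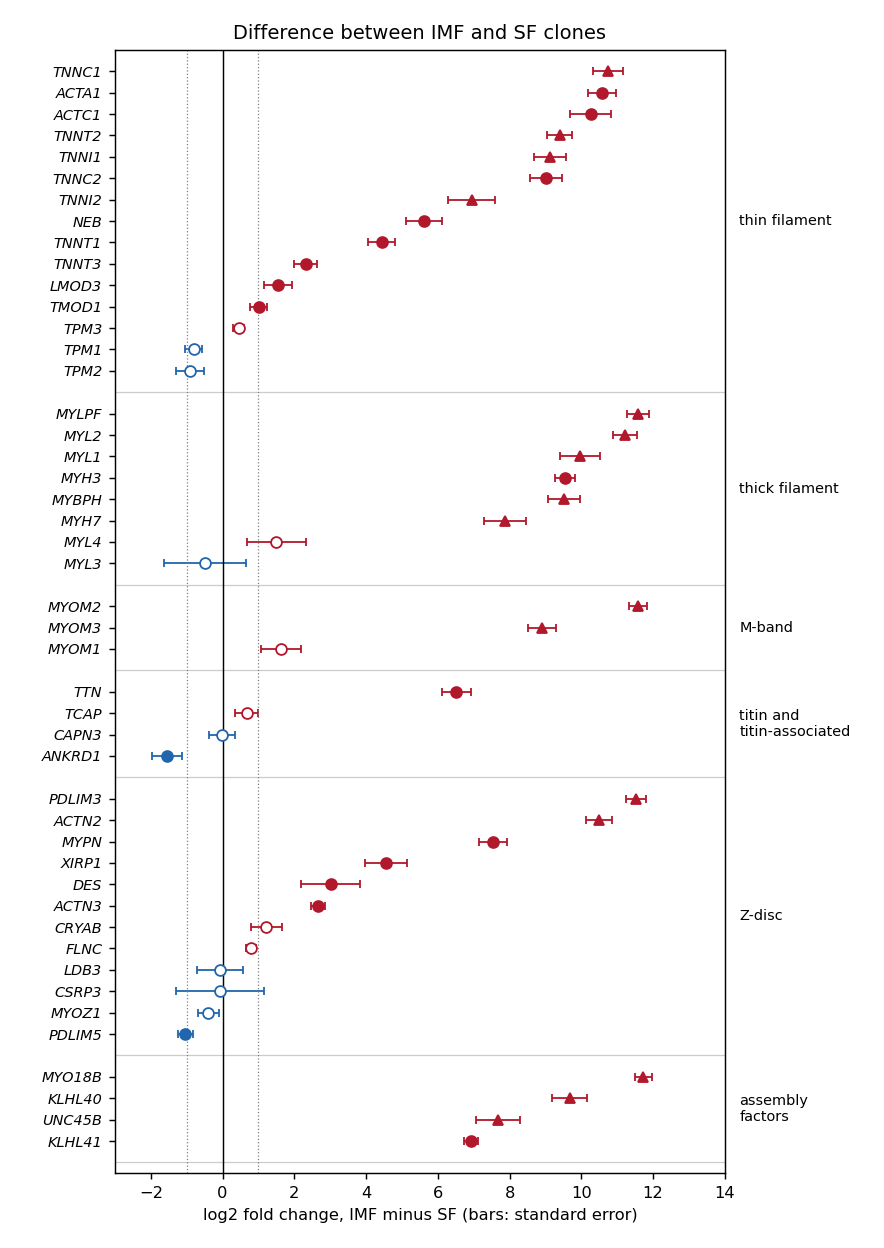
Log2 fold change of each member, IMF minus SF, with the standard error of the fit as bars. Filled symbols passed both thresholds, open symbols did not, triangles mark members with at most 3 counts over all SF clones, whose fitted value depends on the prior count, and dotted lines mark a log2 fold change of 1 in either direction. All 4 assembly factors and 12 of 15 thin filament members are filled and lie to the right, and the filled symbols to the left of 0 are *ANKRD1* and *PDLIM5*.

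The sarcomeric actins of the thin filament were nearly absent from the SF clones. The 15 thin filament members had a median log2 fold change of 5.63, 12 of them past the thresholds. *ACTC1*, cardiac alpha-actin, which fetal and regenerating skeletal muscle also makes, had 184, 177, 175 and 153 CPM in IMF1 to IMF4 and 0.462, 0.1, 0 and 0 CPM in SF1 to SF4. *ACTA1*, the alpha-actin of adult skeletal muscle, had 114, 108, 101 and 80.3 CPM in the IMF clones and 0, 0, 0.0812 and 0.165 CPM in the SF clones. No SF clone came near an IMF clone in either gene. The log2 fold change was 10.26 for *ACTC1* (SE 0.57, edgeR adjusted p = 1.21e-05) and 10.57 for *ACTA1* (SE 0.40, adjusted p = 2.89e-06). Per length, *ACTC1* exceeded *ACTA1* in the IMF clones, at 207 against 104 TPM on average. Both lie apart in the genome, *ACTC1* on chromosome 10 (30288631 to 30293908 in ARS-UCD2.0) and *ACTA1* on chromosome 28 (1400446 to 1403202), but their coding sequences are alike, and how reads shared between actins were counted is not given in the sources used here.

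All 7 troponin members with a row were higher in IMF, covering the tropomyosin-binding T, inhibitory I and calcium-binding C subunits. The adult cardiac form *TNNI3*, which is no member, did not pass (1.25 and 3.89 CPM, adjusted p = 0.252). Neighbouring pairs lie on chromosome 16, *TNNI1* (80900873 to 80906693) and *TNNT2* (80931674 to 80943043), and on chromosome 29, *TNNT3* (49579057 to 49594681) and *TNNI2* (49645742 to 49648340). *TNNC2*, fast skeletal troponin C, was the highest per length at 85.1 TPM in IMF, and had 39.2, 39.4, 33.4 and 26.3 CPM in the IMF clones against 0, 0.1, 0 and 0.165 CPM in the SF clones (log2 fold change 9.02 ± 0.45 SE, edgeR adjusted p = 8.20e-06). *TNNC1*, the slow and cardiac form, had 10.6, 11.7, 8.70 and 7.71 CPM in the IMF clones and none in SF, at least 65.5-fold higher with SF set to 3 counts per clone. *TNNT2*, the cardiac T subunit that embryonic skeletal muscle shares, had 32.9, 29.1, 26.4 and 24.6 CPM in IMF and 3 counts over all SF clones. Its count ratio, scaled for library size like all count ratios below, was 776 (exact 95% interval 265 to 3770, counting error only). *TNNI1*, the slow inhibitory subunit, had a count ratio of 826 (148 to 32700) and the fast *TNNI2* one of 184 (32.6 to 7290), each against 1 count in SF1. The slow *TNNT1* had 2.63 to 3.83 CPM in IMF and 0.0551 to 0.203 CPM in SF (log2 fold change 4.43). *TNNT3*, the fast T subunit, was the troponin member with the highest SF level per length, and had 1.08, 1.40, 0.568 and 1.87 CPM against 6.81, 6.08, 5.53 and 5.90 CPM in IMF (log2 fold change 2.31 ± 0.33 SE, edgeR adjusted p = 0.00144).

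*NEB*, nebulin, the ruler along the thin filament, had 62.2, 66.8, 77.9 and 63.8 CPM in IMF against 0.719, 0.651, 0.812 and 3.42 CPM in SF (log2 fold change 5.63 ± 0.50 SE, edgeR adjusted p = 0.000147). SF4 stood above the other SF clones but far below the IMF clones. Pointed-end proteins differed less. *TMOD1*, the tropomodulin that caps the pointed end of actin filaments, had 3.60, 3.83, 5.03 and 3.57 CPM in IMF against 1.33, 2.50, 1.87 and 2.26 CPM in SF. Its log2 fold change of 1.01 (SE 0.24, adjusted p = 0.0166) lay just past the fold threshold and did not pass in 6 of 16 alternatives, among them those without IMF3 (0.85), SF1 (0.86) and SF3 (0.95). *LMOD3*, the leiomodin that starts new skeletal thin filaments, had 1.53, 2.55, 1.77 and 2.62 CPM in IMF against 0.308, 0.851, 0.852 and 0.882 CPM in SF (log2 fold change 1.54 ± 0.38 SE, edgeR adjusted p = 0.0193), and did not pass in 3 of 16, among them those without IMF2 (adjusted p = 0.0554) and without IMF4 (0.0522).

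None of the 3 tropomyosins, which lie along actin in muscle and other cells, passed both thresholds. *TPM1* had 1611, 1686, 1492 and 1481 CPM in IMF against 4226, 2005, 2005 and 2724 CPM in SF. Every SF clone was above every IMF clone, SF1 by the most, and the log2 fold change of -0.81 (SE 0.24, edgeR adjusted p = 0.0405) did not reach the fold threshold. *TPM2* had 656, 653, 568 and 554 CPM in IMF against 2050, 495, 736 and 1285 CPM in SF, so that SF2 fell below the IMF clones (log2 fold change -0.91, adjusted p = 0.125). It passed without SF2 (-1.16, adjusted p = 0.0322). *TPM3* had 221, 247, 230.1 and 223 CPM in IMF against 114, 198, 183 and 182 CPM in SF, all below the IMF clones (log2 fold change 0.45, adjusted p = 0.078, edgeR). Per length, *TPM1* and *TPM2* were the most abundant thin filament members in both depots, at 565 and 362 TPM in IMF and 964 and 655 TPM in SF.

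In the thick filament, 6 of 8 members were higher in IMF, and the 8 summed to 242 to 350 TPM in the IMF clones but 0.575 to 6.04 TPM in the SF clones. Their median log2 fold change was 9.53, or 5.88 with genes at 0 in SF set to their bound. *MYH3*, the embryonic myosin heavy chain, on chromosome 19 (29601526 to 29622481), had 127, 136, 121 and 109 CPM in the IMF clones and 0.257, 0.200, 0.0406 and 0.165 CPM in the SF clones (log2 fold change 9.55 ± 0.27 SE, edgeR adjusted p = 5.43e-07). *MYH7*, the slow and cardiac heavy chain, had 3.60, 5.10, 4.49 and 3.67 CPM in IMF and 1 count in SF4 alone, a count ratio of 354 (63.2 to 14000). Per length *MYH3* had 33.7 TPM and *MYH7* 1.15 TPM in IMF.

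Among the light chains, *MYLPF*, the regulatory light chain of fast skeletal myosin, on chromosome 25 (26559395 to 26561857), was the highest member of the thick filament at 237 TPM in IMF. It had 99.5, 103, 86.9 and 75.9 CPM in the IMF clones and 1 count each in SF2 and SF3, a count ratio of 3800 (1050 to 31400). *MYL2*, the slow and cardiac regulatory chain, had 13.5, 15.5, 13 and 11.5 CPM in IMF and 0 counts in SF, at least 90.4-fold higher. *MYL1*, the fast essential chain, had 6.48, 7.00, 5.26 and 3.81 CPM against 0 counts, at least 38.1-fold higher, and *MYBPH*, a myosin-binding protein, was at least 28.0-fold higher. *MYL4*, the embryonic and atrial essential chain, did not pass. It had 2.88, 3.69, 2.81 and 1.71 CPM in IMF, and 3.03, 0.150, 0.365 and 0.386 CPM in SF, so that SF1 reached the IMF range while the other SF clones lay below it (log2 fold change 1.5 ± 0.82 SE, adjusted p = 0.217). It passed without SF1 (log2 fold change 3.18, adjusted p = 0.00175) and with limma-voom (adjusted p = 0.0372). *MYL4* overlaps *CDC27* in the annotation, and reads of the overlap may have been assigned to either. *MYL3*, the slow and ventricular essential chain, had at most 20 counts in any clone and its groups overlapped (adjusted p = 0.799).

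The M-band proteins of the myomesin family crosslink myosin tails. *MYOM2* had 17.1, 17.7, 16.0 and 18.5 CPM in IMF and 0 counts in SF, at least 117-fold higher, and *MYOM3* had 20.2, 19.8, 20.4 and 20.5 CPM against 3 counts in SF, a count ratio of 554 (189 to 2690). *MYOM3* was the most even member among the IMF clones, with a coefficient of variation of 1.54%. *MYOM1* had 4.22, 3.69, 4.4 and 3.47 CPM in IMF against 0.205, 1.55, 2.35 and 0.937 CPM in SF. The groups did not overlap, and SF1 and SF3 lay farthest apart within SF. The log2 fold change of 1.63 did not pass (SE 0.55, edgeR adjusted p = 0.0606), but passed under DESeq2 (0.0155), limma-voom (0.027) and total counts alone (0.0477), without SF1 (0.0205) and without SF3 (0.0306).

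*TTN*, titin, the spring that spans from Z-disc to M-band, on chromosome 2 (18061216 to 18336786), had 139, 151, 156 and 156 CPM in IMF against 2.67, 1.45, 0.527 and 2.04 CPM in SF (log2 fold change 6.52 ± 0.40 SE, edgeR adjusted p = 2.11e-05). Its long transcript makes this 2.36 TPM in IMF. None of the 3 listed titin partners with a row was higher, while the titin-binding *TRIM55*, which is no member, was. *TCAP*, telethonin, which caps titin at the Z-disc, had 2.83, 2.55, 2.40 and 2.24 CPM in IMF against 2.46, 1.75, 0.974 and 1.10 CPM in SF, with SF1 inside the IMF range (log2 fold change 0.67, adjusted p = 0.16). *CAPN3*, the muscle calpain held by titin, had 1.36 to 2.28 CPM in IMF and 1.20 to 3.42 CPM in SF (log2 fold change -0.02 ± 0.36 SE, edgeR adjusted p = 0.978). *ANKRD1*, a stretch-responsive ankyrin repeat protein that binds titin and is also made by spread non-muscle cells, was lower in IMF, with 292, 308, 289 and 264 CPM against 1469, 305, 546 and 1049 CPM in SF. SF2 lay within the IMF range, and the log2 fold change was -1.55 (SE 0.43, adjusted p = 0.029). *ANKRD1* did not pass in 8 of 16 alternatives, among them each of the fits without 1 IMF clone (adjusted p from 0.0634 to 0.0734), without SF1 (0.0516) and without SF4 (0.0677).

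At the Z-disc, 6 of 12 members with a row were higher in IMF and 1 was lower, at a median log2 fold change of 1.94. *PDLIM3* and *ACTN2*, the latter the muscle alpha-actinin that crosslinks thin filaments, had 0 counts in every SF clone. *PDLIM3*, which binds alpha-actinin, had 17.1, 17.8, 16.7 and 14.7 CPM in IMF and 0 counts in SF, at least 112-fold higher, and *ACTN2* was at least 55.1-fold higher, with 7.14 to 9.29 CPM in IMF. *MYPN*, myopalladin, had 14.7 to 19.2 CPM in IMF and at most 0.162 CPM in SF (log2 fold change 7.55). *XIRP1*, an actin-binding repeat protein of striated muscle, had 29.2 to 33.5 CPM in IMF against 3.23, 0.200, 0.649 and 1.38 CPM in SF (log2 fold change 4.55). *ACTN3*, the fast-fibre alpha-actinin, had 22.2, 21.8, 20.9 and 17.3 CPM in IMF against 4.05, 2.50, 2.56 and 3.97 CPM in SF (log2 fold change 2.66 ± 0.19 SE, edgeR adjusted p = 4.93e-05).

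*DES*, desmin, the intermediate filament that ties Z-discs together, had 102, 102, 101 and 85.2 CPM in IMF against 19.4, 0.250, 7.02 and 21.9 CPM in SF. All SF clones lay below the IMF clones, with almost none in SF2, and the log2 fold change of 3.01 (SE 0.83, edgeR adjusted p = 0.0291) did not pass in 7 of 16 alternatives, including each fit without 1 IMF clone (0.0547 to 0.0651) and that without SF3 (0.0769). *CRYAB*, the small heat shock chaperone of desmin and titin, was the highest member per length in IMF, at 687 TPM on average, with 294 TPM in SF. It had 250, 257, 264 and 233 CPM in IMF against 29.1, 159, 128 and 114 CPM in SF, lowest in SF1 (log2 fold change 1.22 ± 0.42 SE, adjusted p = 0.0652), and passed under DESeq2 (0.0153) and with total counts alone (0.044). *FLNC*, the muscle filamin, had 1304, 1240, 1404 and 1242 CPM in IMF against 682, 620, 742 and 950 CPM in SF. All IMF clones lay above all SF clones, at a log2 fold change of 0.79 (SE 0.14, adjusted p = 0.00459), under the fold threshold.

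*PDLIM5*, a PDZ and LIM domain protein of Z-discs and stress fibres, was lower in IMF, with 167, 177, 181 and 172 CPM against 518, 293, 255 and 366 CPM in SF, and no overlap. Its log2 fold change of -1.04 (SE 0.21, edgeR adjusted p = 0.0072) lay just past the fold threshold, and it did not pass in 5 of 16 alternatives, among them the fit without SF1 (-0.81). *LDB3*, a Z-disc PDZ protein also called ZASP, was the least even member in IMF among those with a mean of at least 1 CPM, at 59.4, 5.79, 10.4 and 24.8 CPM, against 27.3, 38.9, 18.1 and 20.8 CPM in SF (log2 fold change -0.07 ± 0.64 SE, adjusted p = 0.952). Chosen after its values were seen, *SMPX*, a small muscle protein, was also highest in IMF1 and lowest in IMF2 (43.2, 6.34, 30.3 and 21.3 CPM). The leukocyte marker *PTPRC* (19.2, 1.90, 7.12 and 10.5 CPM) and *DLK1* (3.17, 0, 0.181 and 1.81 CPM) had the same order of the IMF clones as *LDB3*, and their part in it was not tested. *MYOZ1*, a calcineurin-binding protein of fast-fibre Z-discs, had 0.960 to 1.18 CPM in IMF and 0.893 to 1.90 CPM in SF (adjusted p = 0.38), and *CSRP3*, the muscle LIM protein, had at most 10 counts in any clone (adjusted p = 0.974). *MYOZ1* overlaps *SYNPO2L* in the annotation.

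The 4 assembly factors with a row were higher in IMF, with a median log2 fold change of 8.68, or 6.97 with genes at 0 in SF at their bound. *KLHL41*, a nebulin-stabilising kelch protein, was the highest of them at 46.3 TPM, with 62.6, 62.8, 60.5 and 48.2 CPM in IMF against 0.308, 0.651, 0.446 and 0.496 CPM in SF (log2 fold change 6.93 ± 0.19 SE, edgeR adjusted p = 5.43e-07). Its relative *KLHL40* had 4.89, 4.19, 5.71 and 3.71 CPM and 0 counts in SF, at least 31.3-fold higher. *MYO18B*, on chromosome 17 (65514548 to 65747160), an unconventional myosin needed for sarcomere assembly, had 19.9, 18.4, 20.4 and 18.0 CPM and 0 counts in SF, at least 130-fold higher. *UNC45B*, the myosin chaperone, had 4.75, 3.27, 2.99 and 3.71 CPM and 1 count in SF4, a count ratio of 299 (53.2 to 11800).

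Genes listed here as developmental and as adult isoforms were both present in the IMF clones. The list names do not mean that a gene is limited to that stage, which was not tested. Of 4 developmental isoforms with a row (*MYH3*, *MYL4*, *ACTC1* and *TNNT2*), 3 were higher in IMF, and they summed to 236 to 325 TPM in the IMF clones and 0.585 to 6.42 TPM in the SF clones, with *MYL4* holding most of the sum in SF1. Of 8 adult fast isoforms, 6 were higher and their sum was 269 to 406 TPM in IMF against 2.7 to 5.30 TPM in SF, the greater part of it *MYLPF* and *TNNC2* in IMF and *TNNT3* and *ACTN3* in SF. Of 8 adult slow and cardiac isoforms, 5 were higher, at 56.4 to 75.1 TPM in IMF and 1.65 to 17.4 TPM in SF, where *TNNI3* held most of the sum in every clone. Adult heavy chains were low beside the embryonic one. Against 33.7 TPM of embryonic *MYH3*, the adult fast heavy chain *MYH2* had 0.0475 TPM in IMF and 0.0756 TPM in SF, with at most 10 counts in any clone and overlapping groups (adjusted p = 0.704, edgeR). *MYH1* and *MYH4* were not analysed here. *MYBPC2*, the fast myosin-binding protein C, was also low and overlapping, at 0.766 CPM in IMF against 1.28 CPM in SF (adjusted p = 0.622). Heavy chain genes of the cluster on chromosome 19 share sequence, so reads could have been split between them.

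**Figure D3:**
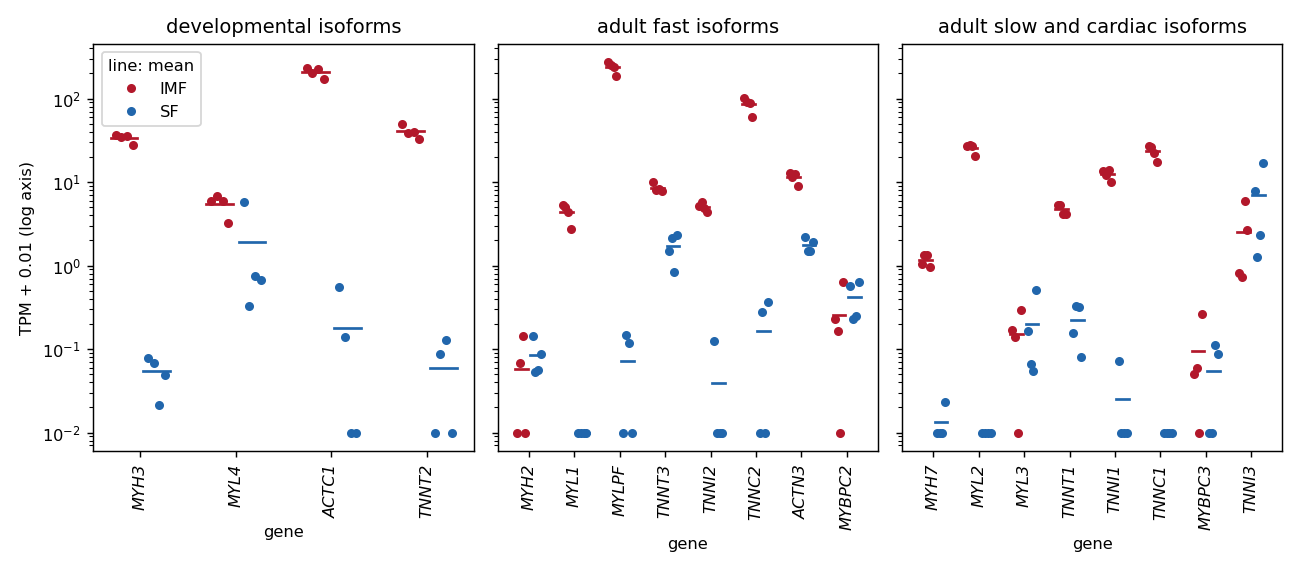
TPM of developmental, adult fast, and adult slow and cardiac isoforms in each clone, on a log axis after adding 0.01, with 1 point per clone and a line at each group's mean. The IMF points of *MYH3*, *ACTC1*, *MYLPF* and *TNNC2* stand well above the SF points, while *MYH2*, *MYBPC2*, *MYL3* and *MYBPC3* are low and mixed in both groups and *MYL4* of SF1 lies with the IMF clones.

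Set against the cytoplasmic and smooth muscle members of the same families, the sarcomere members were a minority in the IMF clones, except among the tropomyosins. Sarcomeric *ACTA1* and *ACTC1* together made up 4.34% to 5.25% of the TPM of 6 actin genes in the IMF clones and at most 0.00414% in an SF clone, while *ACTB*, cytoplasmic beta-actin, held 43.4% to 44.3% in IMF. *MYH3* and *MYH7* together held 6.05% to 7.69% of 7 myosin heavy chain genes in IMF, next to 72.3% to 74.2% for non-muscle *MYH9*. Of 9 light chain genes, the 5 sarcomeric ones held 12.0% to 13.7% in IMF and 0.0194% to 0.164% in SF. *ACTN2* and *ACTN3* together held 2.45% to 3.04% of the alpha-actinins in IMF and 0.180% to 0.265% in SF. Smooth muscle *ACTA2* held 12.9% to 13.6% of the actins in IMF and 11.6% to 39.3% in SF.

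**Figure D4:**
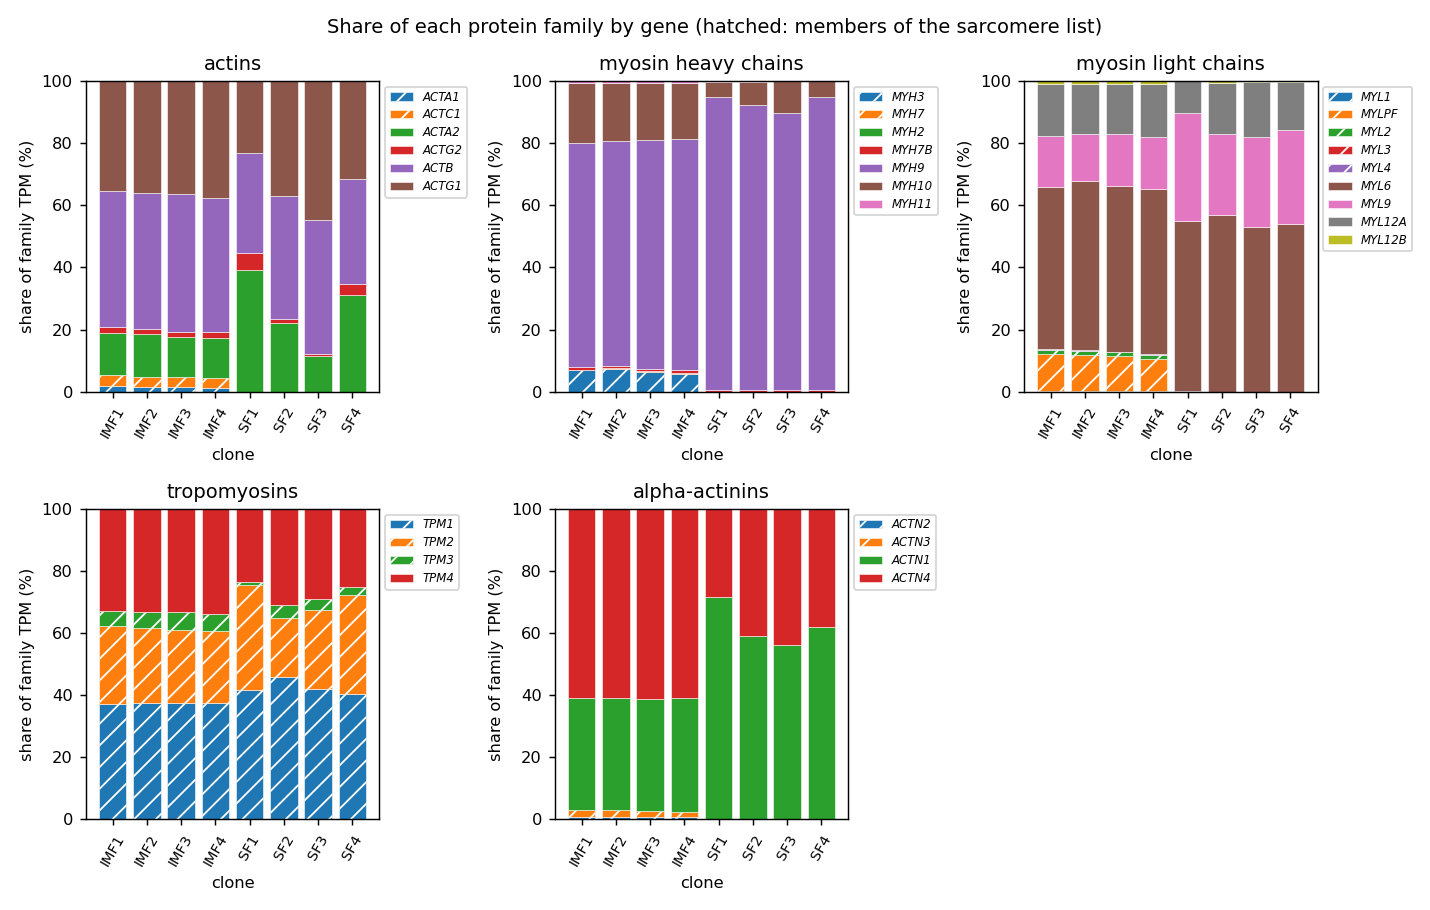
Share of each gene in the summed TPM of its protein family, as stacked bars from 0 to 100% for each clone, with the members of the sarcomere list hatched at the bottom. Hatched segments are visible in all IMF bars, and thinner or too thin to see in the SF bars, except among tropomyosins, where they make up 66.2% to 76.4% of every bar.

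Of 24 cytoplasmic and smooth muscle counterparts, 7 were lower and 2 higher in IMF past both thresholds (against 4.04% and 4.78% of all genes), 15 did not pass, and their median log2 fold change was -0.53. All IMF clones lay below all SF clones in 13 (against 14.1% of all genes) and above them in 5 (against 18.0%). *CNN1*, smooth muscle calponin, had 112, 104, 101 and 96.4 CPM in IMF against 839, 202, 258 and 392 CPM in SF (log2 fold change -2.03, adjusted p = 0.00827, edgeR). *ACTN1*, the alpha-actinin of stress fibres, had 481 CPM in IMF against 1247 CPM in SF (-1.38). *TAGLN*, transgelin, had 1096 and 2333 CPM (-1.09), and *MYL9*, the smooth muscle regulatory light chain, 242 and 612 CPM (-1.34). *ACTA2*, smooth muscle alpha-actin, passed (-1.68, adjusted p = 0.0333) with SF3 inside the IMF range. Those higher in IMF were *MYH10*, non-muscle myosin IIB (452 and 215 CPM, log2 fold change 1.07), and *MYH11*, smooth muscle myosin (12.1 and 4.02 CPM, 1.59). SF1 was the SF clone with the most *TPM1*, *TPM2*, *ANKRD1*, *PDLIM5*, *CNN1* and *ACTA2*, and the one with the least *CRYAB* and *TPM3*.

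Of 20 further sarcomere genes with a row, 3 were higher and 3 lower in IMF, against 4.78% and 4.04% of all genes, and 14 did not pass. Their median log2 fold change was -0.52. All IMF clones lay below all SF clones in 6 of the 20 (against 14.1% of all genes) and above them in 3 (against 18.0%). *SYNPO2L*, a Z-disc actin-binding protein, had 22.0 CPM in IMF against 1.39 CPM in SF (log2 fold change 3.99, adjusted p = 1.43e-05, edgeR). *TRIM55*, a titin-binding ubiquitin ligase, had 3.94 CPM in IMF and 0 counts in SF, at least 26.6-fold higher, and *ANKRD2*, a relative of *ANKRD1*, had 4.21 and 0.971 CPM (log2 fold change 2.11). *HSPB7* (18.4 CPM in IMF against 83.0 CPM in SF), *SYNPO2* (54.7 and 159 CPM) and *OBSL1* (27.0 and 54.7 CPM) were lower. *ANKRD2* and *ANKRD1* thus passed in opposite directions.

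The members were more even among the IMF clones than among the SF clones. Of 19 members with a mean of at least 1 CPM in both groups, 18 (94.7%) had the larger coefficient of variation in SF, as did 71.1% of 14351 genes chosen in the same way, and the exception was *LDB3*. The median coefficient of variation of the 19 was 8.86% in IMF and 44.6% in SF, against 8.01% and 16.1% over the 14351 genes. IMF4 had the lowest level of the IMF clones in 27 of 46 members (58.7%), while it was lowest in 36.1% of the 18239 genes with over 3 counts in an IMF clone. No pair of clones was as alike as sampling noise alone would give.

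**Figure D5:**
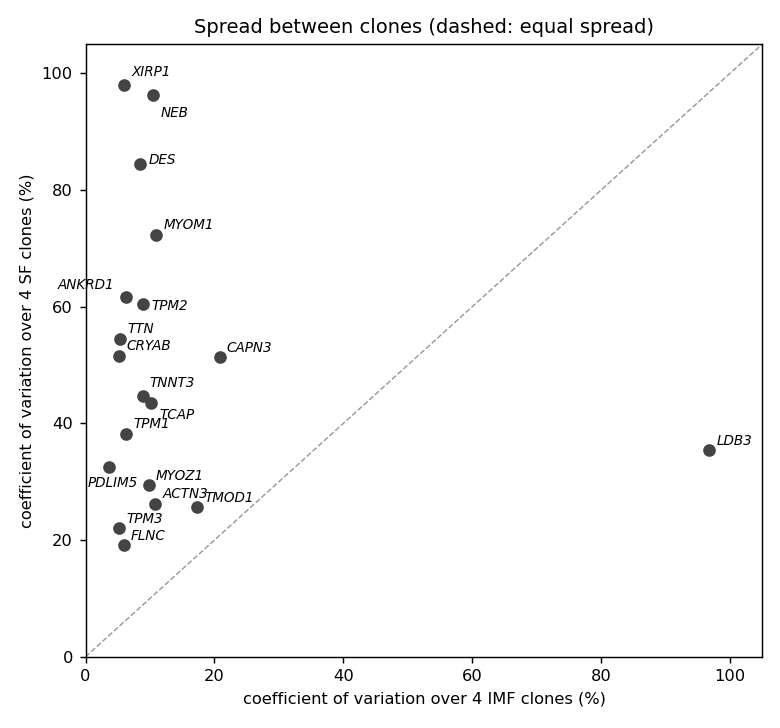
Coefficient of variation of the CPM over the 4 IMF clones (horizontal) and over the 4 SF clones (vertical) for the 19 members with a mean of at least 1 CPM in both groups, 1 point per gene. All points but *LDB3* lie above the dashed line of equal spread, and *XIRP1*, *NEB* and *DES* are the highest in SF.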

How the data were processed

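RNA-seq counts of 4 IMF and 4 SF clones, grouped by the sample labels, were analysed. Per the authors, reads were trimmed (Trimmomatic 0.39), then aligned (HISAT2 in the paper's methods, STAR 2.7.11a in the submitters' processing notes) and summarised with featureCounts 2.0.2 into the deposited raw counts per gene, with gene length in bases as another deposited column. The labels describe a dUTP (strand-marking) protocol and the paper non-stranded libraries. Of 46 members, 12 overlap another annotated gene, and whether reads of the overlaps were told apart by strand is not given in the sources used here. The deposited columns of group means and of the authors' DESeq2 comparison (1.42.0 in the processing notes) were not used. The 1 row that names no gene, with 0.0148% to 0.0209% of a clone's counts, was left out.

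The test was run in edgeR 4.0.16 (R 4.3.3) on the 18339 genes with at least 20 counts in total (TMM, two-sided quasi-likelihood test, Benjamini-Hochberg adjustment). A gene passed with an adjusted p under 0.05 and a log2 fold change of 1 or more in size. All 46 members with a row met this filter, which a gene high in 1 group alone can also meet. Standard errors were the log2 fold change divided by the square root of its F statistic. Folds against a group at 0 in all clones were set against 3 counts in each clone. Against 1 to 3 counts over a group, the count ratio is the ratio of summed counts scaled by the groups' summed library sizes after TMM. It is given with its exact (Clopper-Pearson) 95% interval, scaled in the same way. TPM used the deposited lengths. Coordinates and overlaps came from RefSeq genes on ARS-UCD2.0, a list that held 14421 of 18871 gene IDs and all 46 members (*MYLPF* as *MYL11*). All 8 counts were even numbers in 1879 genes (9.96%), among them *MYL3*, *CAPN3* and *KLHL40*, for a reason that was not tested.

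The members and lists were chosen with earlier results of these data known. Values per clone were given, in each part, for the 5 members with the highest mean TPM in their higher group and for members that were lower in IMF, did not pass or overlapped, with low-count members as ranges. In the other lists, up to 5 genes past the thresholds by mean CPM in their higher group and the adult heavy chains were to be named. Values of other members, and *TRIM55*, *CNN1*, *MYH10*, *MYH11*, *TNNI3*, *MYBPC2*, *MYBPC3*, *SMPX*, *PTPRC* and *DLK1*, were added after their values were seen. Same-numbered IMF and SF clones are not stated to share a steer. Alternatives were DESeq2 1.42.0, limma-voom 3.58.1, RLE size factors, total counts alone, no filter, 10 or more counts in 4 or more clones, glmTreat (a test for changes over 1 on the log2 scale), a replicate block on clone numbers, and each clone left out in turn. A count of members without genes of even counts was added after seeing the data. Promoter motifs were not analysed here.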

Additional observations from a re-analysis of the deposited data

Results flagged for a closer look

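A clone stood apart from the other 3 of its group in 10 of 83 groups of 4 values with any spread, by the ratio of its gap to the group's range, where chance alone gives about 1 in 20. *NEB* was highest in SF4 at 3.42 CPM (62 counts, against 13 to 20 in the other SF clones). *MYL4* was highest in SF1 at 3.03 CPM (59 counts), and *LMOD3* was lowest there at 0.308 CPM (6 counts). In 4 of the 10, the clone held the group's only count, which alone fixes that ratio at its highest value, so that these cannot be set against chance, namely *TNNI1* and *TNNI2* in SF1 (0.0513 CPM each) and *MYH7* and *UNC45B* in SF4 (0.0551 CPM each). In the IMF group, IMF4 was lowest for *TNNI1* at 8.57 CPM, for *DES* at 85.2 CPM and for *KLHL41* at 48.2 CPM.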

How the results depend on the processing

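Of the 31 members higher in IMF, 28 passed in the same direction in all 16 alternatives, and the number of members past both thresholds ranged from 28 to 35 (33 as reported, 32 without genes of even counts). Over 734 values of single members under an alternative, 681 kept direction and side of the threshold, 29 lost the call and 10 gained it. Changes of sign concerned 4 members that did not pass, *CAPN3* (log2 fold change 0.11 with limma-voom, 0.15 with total counts alone, 0.063 under a replicate block, and -0.19 to 0.40 with 1 clone left out, above 0 without IMF3 or SF4), *LDB3* (0.065 with total counts alone, and -0.95 to 0.24 with 1 clone left out, above 0 without IMF2, IMF3 or SF2), *CSRP3* (0.11 with total counts alone, and -1.09 to 0.90 with 1 clone left out, above 0 without IMF1, IMF2 or SF4) and *MYL3* (-1.06 to 0.77, above 0 without SF4). Lower in IMF were 1 member with limma-voom or total counts alone, 0 with glmTreat, which tests for changes over 1 on the log2 scale, or with the block, and 0 to 3 with 1 clone left out, the 0 without SF1 and the 3 without SF2. With glmTreat, 631 of all genes passed (476 higher and 155 lower), as did 1 lower gene of the further sarcomere genes and 0 counterparts (0 higher and 0 lower). Counterparts higher in IMF numbered 0 to 2 with 1 clone left out, 0 of them without SF4. At an unadjusted p under 0.05 there was 1 lower member in each setting with 0, and glmTreat had 6 lower and 1 higher counterparts, where DESeq2 and limma-voom each called 9. These causes were not tested. Deviations of same-numbered clones correlated at r from -0.00933 to 0.139, against -0.105 to 0.109 for the other IMF and SF pairs. Such weak values cannot tell whether clones share a steer. The numbers were not taken as pairs in the main fit, since they are not stated to mean a shared steer. Under the replicate block 30 members passed, and *ANKRD1* (-1.32, adjusted p = 0.0833), *PDLIM5* (-0.985) and *DES* (adjusted p = 0.0551) did not. By CPM in place of TPM, 7 of the 10 members highest in IMF were kept. Depth limits the members with 3 counts or fewer in SF to lower bounds or wide intervals.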
